A study of Mus musculus with 12 samples.

Results

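The genes Mbp, Mobp, Mog, Mag, Mal, Cnp, Ermn, Gjc3 and Olig1 encode proteins of the myelin sheath and of the oligodendrocytes that make it. They were taken by symbol from a table of counts per gene, in which they are 9 of 24020 rows. Every one of the 9 passed the filter on low counts that left 10737 genes to test. The table came from whole hypothalamus of 12 mice of the line Wfs1tm1Koks, in which Wfs1 is mutated, the gene of the endoplasmic reticulum membrane protein wolframin. By the stated design there were 4 individuals of each genotype, with 1 RNA-seq library each: wild-type mice with 0 mutant copies, heterozygous mice with 1 and homozygous mice with 2. Sources used here do not give the age or sex of the mice, any treatment, or the part of Wfs1 that the allele removes. The homozygous library called replicate 5 was placed by the genotype in its column name, because no label carries its number. The labelled homozygous replicate 3 matched no column, and whether these are the same animal is not given in the sources used here.

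Oligodendrocytes wrap axons in many layers of their own membrane, which insulates the axon and speeds conduction. In compact myelin the layers lie pressed together with little cytoplasm between them, and basic proteins on the cytoplasmic face and lipid-organising membrane proteins hold them. Glycoproteins stand on the innermost and outermost surfaces, cytoskeletal proteins act in the cytoplasm-filled channels, connexins couple glial cells, and basic helix-loop-helix factors set the lineage. In hypothalamus, which is mostly grey matter, oligodendrocytes are a minority of the cells. The counts come from whole tissue, so fewer oligodendrocytes and less RNA of a gene per oligodendrocyte cannot be told apart.

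Coordinates are those of GENCODE M21 on mm10, the build named in the submitters' processing notes. Mobp spans chr9:120149707-120181484 on the plus strand and Mog chr17:37010743-37023398 on the minus strand. Mag spans chr7:30899176-30914873 and Mal chr2:127633226-127656695, both on the minus strand. Cnp lies at chr11:100574904-100591729 on the plus strand, where 154 bases of its exons overlap exons of Dnajc7 on the other strand. Ermn lies at chr2:58045113-58052864 on the minus strand, with 237 exon bases shared with Galnt5 on the other strand. Gjc3, at chr5:137953461-137963098 on the minus strand, is on the same chromosome as Wfs1, which spans chr5:36966104-36989205. Olig1 lies at chr16:91269772-91271933 on the plus strand and shares 157 exon bases with the lincRNA Gm15966 on the other strand. Mobp shares 79 exon bases with the transcript Gm38642 on its own strand. Whether strand was used in the counting is not given in these sources, so reads in the shared stretches of Cnp, Ermn, Olig1 and Mobp could belong to either gene.

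The 4 members with the smallest p between homozygous and wild-type mice were Ermn, Gjc3, Mag and Mal, and the stretches upstream of their start sites are shown because these genes did not move the same way. Each sequence is the 250 bases before the RefSeq start site on build GRCm38.p6, written 5′ to 3′ on the strand of the gene. For Mag, which has 3 start sites in that set, the one nearest to the GENCODE start is used. Capitals mark matches, on either strand, to the hexamers ACAAAG and ACAATG, which are cores bound by SOX factors of the oligodendrocyte lineage, and to the CCAAT box, a common promoter element.
Ermn (chr2:58052865-58053114, minus strand): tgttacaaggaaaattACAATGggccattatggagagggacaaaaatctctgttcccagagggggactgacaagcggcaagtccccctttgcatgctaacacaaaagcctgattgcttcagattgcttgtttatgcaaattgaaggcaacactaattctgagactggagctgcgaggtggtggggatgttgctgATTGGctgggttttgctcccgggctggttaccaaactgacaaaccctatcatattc
Gjc3 (chr5:137963099-137963348, minus strand): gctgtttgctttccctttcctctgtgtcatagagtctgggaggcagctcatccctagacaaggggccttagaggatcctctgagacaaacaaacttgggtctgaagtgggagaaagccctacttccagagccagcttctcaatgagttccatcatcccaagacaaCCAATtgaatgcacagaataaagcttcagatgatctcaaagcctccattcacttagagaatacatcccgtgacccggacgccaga
Mal (chr2:127656696-127656945, minus strand): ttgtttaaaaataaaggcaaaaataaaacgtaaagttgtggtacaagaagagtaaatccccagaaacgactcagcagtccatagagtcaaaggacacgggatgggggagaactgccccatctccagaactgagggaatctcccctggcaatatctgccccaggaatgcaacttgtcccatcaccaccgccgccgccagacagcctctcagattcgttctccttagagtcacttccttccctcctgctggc
Mag (chr7:30914864-30915113, minus strand): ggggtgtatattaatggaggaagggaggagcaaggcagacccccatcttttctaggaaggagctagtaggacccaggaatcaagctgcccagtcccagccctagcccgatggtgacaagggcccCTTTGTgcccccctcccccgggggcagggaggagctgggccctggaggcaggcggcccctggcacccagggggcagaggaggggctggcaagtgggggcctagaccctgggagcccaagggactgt

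Ermn and Gjc3, both higher, held the letters CCAAT, Ermn on the opposite strand 56 bases and Gjc3 85 bases before the start site. Ermn also had ACAATG 234 bases upstream. Mag, which was lower, had ACAAAG on the opposite strand 126 bases upstream, and the window of Mal held none of these letters. Among the 7 members with a sequence used here, 3 had ACAAAG (Mobp with 6 matches, Mag and Cnp), against 16.5% of 32851 RefSeq windows of the same length. ACAATG was found in 1 of the 7 and in 10.7% of windows, and CCAAT in 2 of the 7 and in 33.8% of windows. ACAATG and CCAAT share the letters CAAT, but no 2 matches overlapped here. The GC content of the windows ran from 47.2% (Ermn) and 48.8% (Gjc3) through 50.0% (Mal) to 66.0% (Mag). A match is a description of the letters and no evidence of binding.

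Libraries held 979394 to 2330872 counts. Wfs1 itself followed the genotype labels: it stood at 114 to 167 CPM (counts scaled to the size of the library) in wild-type animals, 81.8 to 103 in heterozygous and 14.8 to 20.1 in homozygous libraries. Homozygous replicates 4 and 5 stood apart from the other 10 libraries. The ribosomal RNA precursor Rn45s was at 95.6 and 85.8 CPM in them and at 316 and 352 in the other homozygous libraries, against 958 to 1983 in wild-type and 352 to 788 in heterozygous libraries. Rn45s thus differed between genotypes too, with log2 fold changes of -2.81 (adjusted p = 8e-06) in homozygous and -1.68 (0.0168) in heterozygous mice against wild-type mice. A GC score was computed for each library as the slope of log2 CPM, centred on each gene's mean, on the GC content of its transcript, in log2 units per 10 percentage points of GC. It was 0.0256 to 0.33 in wild-type animals, -0.0118 to 0.215 in heterozygous and -0.522 to 0.0178 in homozygous libraries, with -0.475 and -0.522 in homozygous replicates 4 and 5. Wild-type and homozygous libraries did not overlap in this score. Further fits therefore left out these 2 libraries or corrected for GC.

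In homozygous mice the myelin genes moved in both directions. Ermn, Gjc3 and Mal were higher than in wild-type mice by 1.83-, 1.57- and 1.39-fold, and Mag and Olig1 were lower by 1.94- and 1.45-fold. Mbp, Mobp, Mog and Cnp did not pass the test, and the median log2 fold change of the 9 was 0.17, beside -0.03 over all genes tested. In edgeR's quasi-likelihood test, 5 of 9 had an adjusted p under 0.05, where 25.4% of all genes tested did. Higher calls were 3 of 9 (13.7% of all genes) and lower calls 2 of 9 (11.6%). The 4 homozygous libraries did not overlap the 4 wild-type libraries for 3 of 9 genes, Mal, Ermn and Mag, against 23.6% of all genes.

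**Figure D1:**
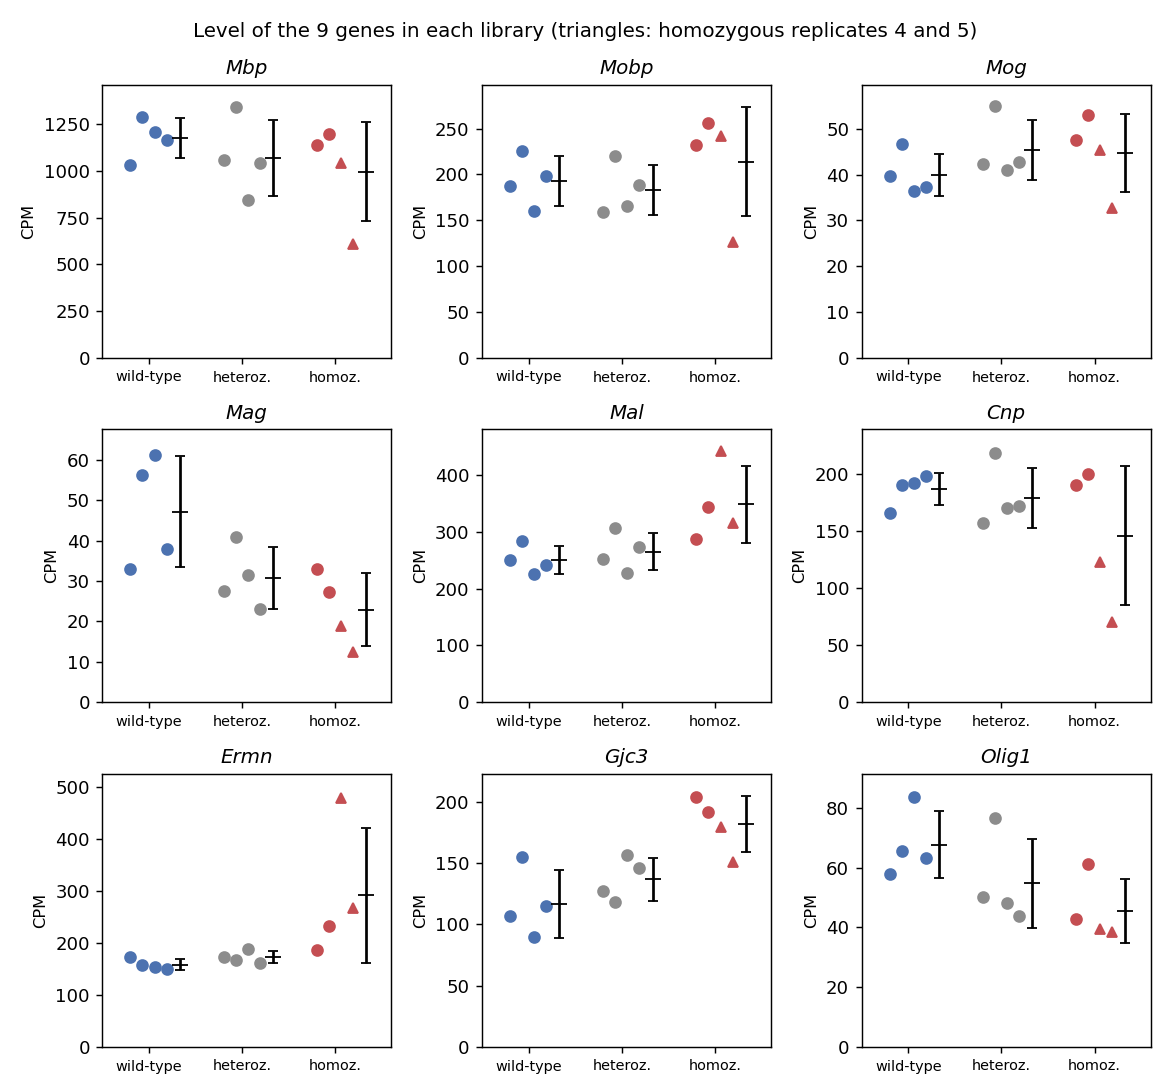
Level of each of the 9 genes, in CPM, in every library (points; triangles are homozygous replicates 4 and 5), and the genotype means with their SD (bars, n = 4). All 4 homozygous libraries lie above all wild-type libraries for Mal and Ermn and below them for Mag, while Mbp, Mobp and Cnp are lowest in homozygous replicate 5.

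Mbp, the basic protein that binds the cytoplasmic faces of the myelin membrane together, had the most counts of the 9. It stood at 1034, 1290, 1209 and 1164 CPM in wild-type mice (replicates 1, 2, 3 and 5), at 1057, 1341, 847 and 1040 in heterozygous mice (replicates 1 to 4) and at 1137, 1198, 1043 and 609.7 in homozygous mice (replicates 1, 2, 4 and 5). Replicate 5 was the low homozygous library, and the other 3 lay within the wild-type range. By genotype it averaged 1174 ± 107, 1071 ± 204 and 997 ± 266 CPM (SD, n = 4 each). The homozygous minus wild-type log2 fold change of Mbp was -0.23 (SE 0.159, 95% interval -0.56 to 0.10) with an adjusted p of 0.301. Without homozygous replicates 4 and 5 it was -0.0018.

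Mobp, a small basic protein of compact myelin, was measured at 187, 226, 160.3 and 198 CPM in wild-type, 159, 220.2, 166 and 188 in heterozygous and 232, 256, 242 and 126 in homozygous libraries. Homozygous replicate 5 was the lowest of all 12 libraries, and the other 3 homozygous libraries exceeded every wild-type library. The log2 fold change was 0.17 (SE 0.169, interval -0.18 to 0.52, adjusted p = 0.494). It was 0.35 without homozygous replicates 4 and 5, still without a call.

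Mal, a proteolipid that organises membrane lipids in transport to myelin, was higher in homozygous mice. Its levels were 250.1, 284, 226 and 241 CPM in wild-type animals, 253, 306, 228 and 274 in heterozygous and 288, 344, 442 and 316 in homozygous libraries. Homozygous and wild-type libraries did not overlap, although the closest pair was 288 against 284 CPM, and the heterozygous range reached into both. The log2 fold change was 0.48 (SE 0.135, interval 0.20 to 0.76), with an adjusted p of 0.0125. Homozygous replicate 4 was the highest library. Without it the value was 0.34 and the adjusted p 0.0695. Without both replicates 4 and 5, Mal stood at 0.35 with an adjusted p of 0.082.

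Mag, a sialic-acid binding glycoprotein on the innermost myelin layer that faces the axon, fell. Its levels were low: 33, 56.1, 61.2 and 37.9 CPM in wild-type, 27.6, 40.9, 31.5 and 23 in heterozygous and 32.9, 27.4, 18.9 and 12.4 in homozygous libraries. The highest homozygous library was just below the lowest wild-type one. These levels rested on 45 to 84 counts per wild-type library and on 49, 61, 23 and 11 counts in homozygous replicates 1, 2, 4 and 5. Mag fell by 0.96 on the log2 scale (SE 0.256, interval -1.49 to -0.43, adjusted p = 0.00844). Without homozygous replicates 4 and 5 the log2 fold change was -0.64 with an adjusted p of 0.0868.

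Mog, an immunoglobulin-like glycoprotein of the outermost myelin surface, was the steadiest member. It stood at 39.6, 46.6, 36.4 and 37.3 CPM in wild-type, 42.4, 55.1, 41 and 42.7 in heterozygous and 47.6, 53, 45.3 and 32.7 in homozygous libraries. The 3 groups overlapped, and the SD of log2 CPM over the 12 libraries, 0.213, was at the 16.1 percentile of all genes tested. The log2 fold change was 0.20 (SE 0.181, interval -0.18 to 0.57, adjusted p = 0.446), and without homozygous replicates 4 and 5 it was 0.35 with an adjusted p of 0.251.

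Cnp, the cyclic nucleotide phosphodiesterase that keeps cytoplasmic channels open in myelin, was split among the homozygous libraries. Its levels were 166, 190.3, 192 and 198 CPM in wild-type, 157, 218, 169.9 and 172 in heterozygous and 190.5, 199.8, 123 and 70 in homozygous libraries. Homozygous replicates 1 and 2 lay within or just above the wild-type range and replicates 4 and 5 below all of it. The log2 fold change was -0.32 (SE 0.201, interval -0.74 to 0.09, adjusted p = 0.249). It was 0.07 without replicates 4 and 5, so that the sign rested on those 2 libraries.

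Ermn, or ermin, an actin-binding protein of late oligodendrocyte differentiation, had the largest rise of the 9 with all 12 libraries and no GC correction. On the log2 scale Gjc3 was above it without homozygous replicates 4 and 5 (0.78 against 0.42) and with the GC covariate (0.73 against 0.25), and with the GC offset Mal was at 0.46, Ermn at 0.45 and Gjc3 at 0.45. It was at 172, 157, 153 and 149 CPM in wild-type animals, 172, 167, 188 and 161 in heterozygous and 186, 233, 478 and 266 in homozygous libraries. Every homozygous library exceeded every wild-type library, and replicate 4 was far above the rest. Means were 158 ± 10.2, 172 ± 11.7 and 291 ± 129 CPM (SD, n = 4 each), so the spread in homozygous mice was the widest. The log2 fold change was 0.87 (SE 0.192, interval 0.48 to 1.27, adjusted p = 0.00212). Without homozygous replicates 4 and 5 it was 0.42 with an adjusted p of 0.0342, and without replicate 4 alone 0.53 with 0.00924.

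Gjc3, a gap junction connexin of myelinating glia, rose in homozygous mice by a similar amount with and without those libraries. It stood at 107, 155, 89.6 and 115 CPM in wild-type animals, 127, 118, 157 and 146 in heterozygous and 204, 192, 179.6 and 151 in homozygous libraries. Here replicates 1 and 2, not 4 and 5, were the highest homozygous libraries, and only homozygous replicate 5 fell within the wild-type range, under wild-type replicate 2. The log2 fold change was 0.65 (SE 0.153, interval 0.34 to 0.97, adjusted p = 0.00346). Without homozygous replicates 4 and 5 it was 0.78 with an adjusted p of 0.000948.

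Olig1, the basic helix-loop-helix factor of oligodendrocyte maturation, was the transcription factor among the members. Its levels were 57.9, 65.6, 83.8 and 63.4 CPM in wild-type, 50.1, 76.7, 48.3 and 44 in heterozygous and 42.9, 61.1, 39.5 and 38.4 in homozygous libraries. Homozygous replicate 2 lay inside the wild-type range and the other 3 below it. The fall of 0.54 on the log2 scale (SE 0.199, interval -0.95 to -0.13) had an adjusted p of 0.0496, the closest of the 9 to the threshold. Without wild-type replicate 3, the highest library of all, it was -0.41 with an adjusted p of 0.194, and the call also ended without homozygous replicates 4 and 5 (-0.35, adjusted p = 0.29). DESeq2 gave an adjusted p of 0.0617.

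**Figure D2:**
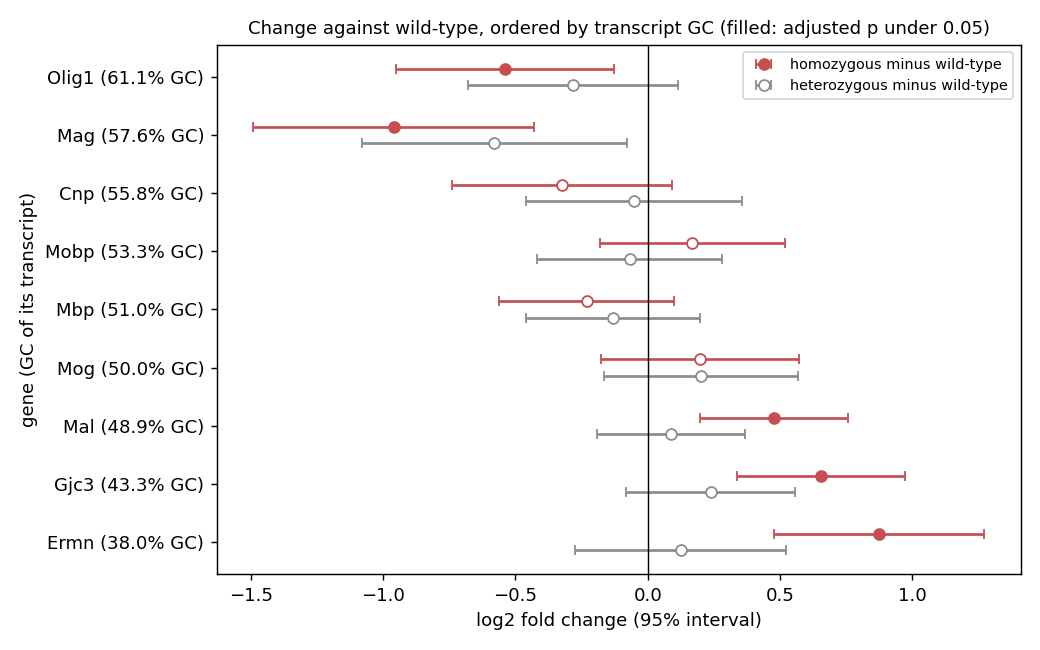
Log2 fold change of each gene against wild-type mice (points) with its 95% interval (bars), for homozygous (red) and heterozygous (grey) mice; filled points have an adjusted p under 0.05. The genes are ordered by the GC content of their longest coding transcript, from Ermn (38.0%) at the bottom to Olig1 (61.1%) at the top, and the homozygous calls are the 3 lowest and 2 highest in GC.

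No gene of the 9 passed the test between heterozygous and wild-type mice, where 0.596% of all genes did. By edgeR the count was 0 of 9. Without adjustment 1 of 9 (Mag) had a p under 0.05, where 14.2% of all genes had. DESeq2 called 0 of 9, and so did limma-voom. Over all 10737 genes DESeq2 called 187 higher and 41 lower, and limma-voom 256 and 138. Mag had the largest difference, -0.58 (SE 0.243, interval -1.08 to -0.08, adjusted p = 0.278). The log2 fold changes of the others ran from -0.28 for Olig1 to 0.24 for Gjc3. The interval for Ermn, -0.28 to 0.52, and that for Mal, -0.19 to 0.37, left room for changes of either sign. No member had heterozygous libraries clear of the wild-type ones, against 9.34% of all genes.

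Between homozygous and heterozygous mice 1 of 9 passed, Ermn, where 2.2% of all genes did. Its log2 fold change was 0.75 (SE 0.189, adjusted p = 0.038), although heterozygous replicate 3 at 188 CPM lay above homozygous replicate 1 at 186. Without homozygous replicate 4 it was 0.40 with an adjusted p of 0.196. Mal and Gjc3 were higher by 0.39 (SE 0.134) and 0.42 (SE 0.15), with adjusted p of 0.112 and 0.124. None of the 9 had groups that did not overlap in this pair, against 9.48% of all genes.

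A slope on the number of mutant copies, fitted over all 12 libraries, passed for 5 of 9 members and for 25.7% of all genes. The slope was 0.44 log2 units per copy for Ermn (adjusted p = 0.00204), 0.33 for Gjc3 (0.00259) and 0.24 for Mal (0.0115). It was -0.48 for Mag (0.00637) and -0.27 for Olig1 (0.0434). These are the genes called between homozygous and wild-type mice, and both fits use the same libraries. For Gjc3 the means rose from 117 ± 27.7 through 137 ± 17.6 to 182 ± 22.5 CPM, and for Mag they fell from 47.1 ± 13.7 through 30.7 ± 7.6 to 22.9 ± 9.03 (SD, n = 4 each). For Ermn most of the slope lay between 1 and 2 copies.

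Summed over the 9 genes the level overlapped between the 3 genotypes: 2234 ± 176 CPM in wild-type animals, 2139 ± 285 in heterozygous and 2290 ± 457 in homozygous animals (SD, n = 4 each). Homozygous replicates 1, 2, 4 and 5 were at 2361, 2564, 2611 and 1623 CPM, and replicate 5 was the lowest of all 12 libraries. The make-up of that sum, which does not depend on how libraries are scaled, differed between libraries. Mbp held 50.5% to 54.7% of it in wild-type libraries and 48.2%, 46.7%, 39.9% and 37.6% in homozygous replicates 1, 2, 4 and 5. Ermn held 6.35% to 8.42% in wild-type libraries. In the homozygous ones it held 7.87%, 9.09%, 18.3% and 16.4%. The share of Mal was 10.2% to 12.2% in wild-type and 12.2%, 13.4%, 16.9% and 19.5% in homozygous libraries.

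The shares of Gjc3, Mag and Olig1 set homozygous libraries apart also in replicates 1 and 2. Gjc3 held 4.05% to 6.27% in wild-type and 6.88% to 9.32% in homozygous libraries. Mag went from 1.61% to 2.77% down to 0.726% to 1.39%, and Olig1 from 2.66% to 3.79% down to 1.51% to 2.38%. None of these ranges met, nor did those of Mbp. Heterozygous libraries reached into both ranges, at 4.66% to 8.39% for Gjc3, 1.1% to 1.68% for Mag, 2.1% to 3.02% for Olig1 and 45.1% to 52.7% for Mbp. The 9 shares of a library sum to a fixed whole, so a lower share of Mbp goes with higher shares of others. No rate over all genes was computed for shares, and in CPM 23.6% of all genes did not overlap between homozygous and wild-type libraries. Cnp was at 7.7% to 9% in wild-type libraries, at 8.07% and 7.79% in homozygous replicates 1 and 2 and at 4.7% and 4.31% in replicates 4 and 5.

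**Figure D3:**
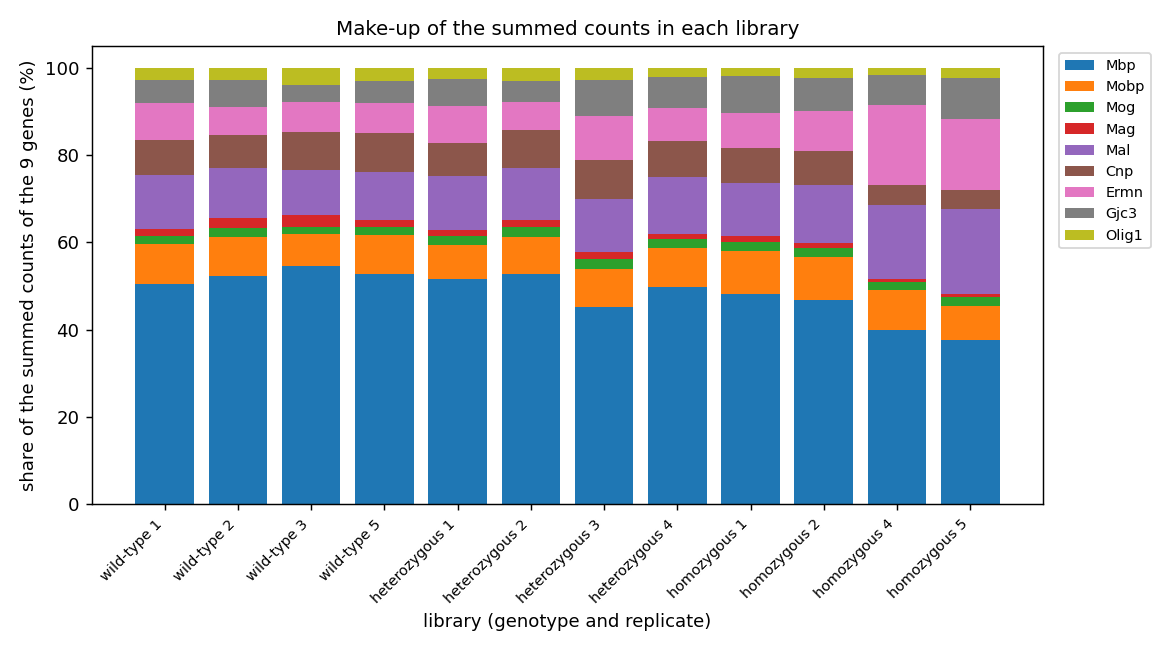
Share of each gene (percent) in the summed counts of the 9 genes, 1 stacked bar per library. The share of Ermn reaches 18.3% and 16.4% in homozygous replicates 4 and 5, against at most 8.42% in wild-type libraries, while that of Mbp drops to 39.9% and 37.6%.

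The direction of the changes followed the GC content of the transcripts. The longest coding transcripts of Ermn, Gjc3 and Mal, the 3 genes that rose, had 38.0%, 43.3% and 48.9% GC, the lowest of the 9. Mog (50.0%), Mbp (51.0%), Mobp (53.3%) and Cnp (55.8%), which were not called, came next, and Mag (57.6%) and Olig1 (61.1%), which fell, were the highest. The same order held over all genes. Of 554 genes tested with up to 40% GC, 33.9% were called higher and 0.903% lower, with a median log2 fold change of 0.37. Among 2155 genes with 40% to 45% GC the median was 0.24, and among 2927 genes with 45% to 50% it was 0.08. Among 1887 genes with 55% to 60% GC, 3.23% were higher and 26.2% lower, with a median of -0.39, and above 60% the median was -0.51. Ermn at 0.87, Gjc3 at 0.65 and Mal at 0.48 each lay above the median of their class, Mag at -0.96 lay below that of its own, and Olig1 at -0.54 was close to it.

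**Figure D4:**
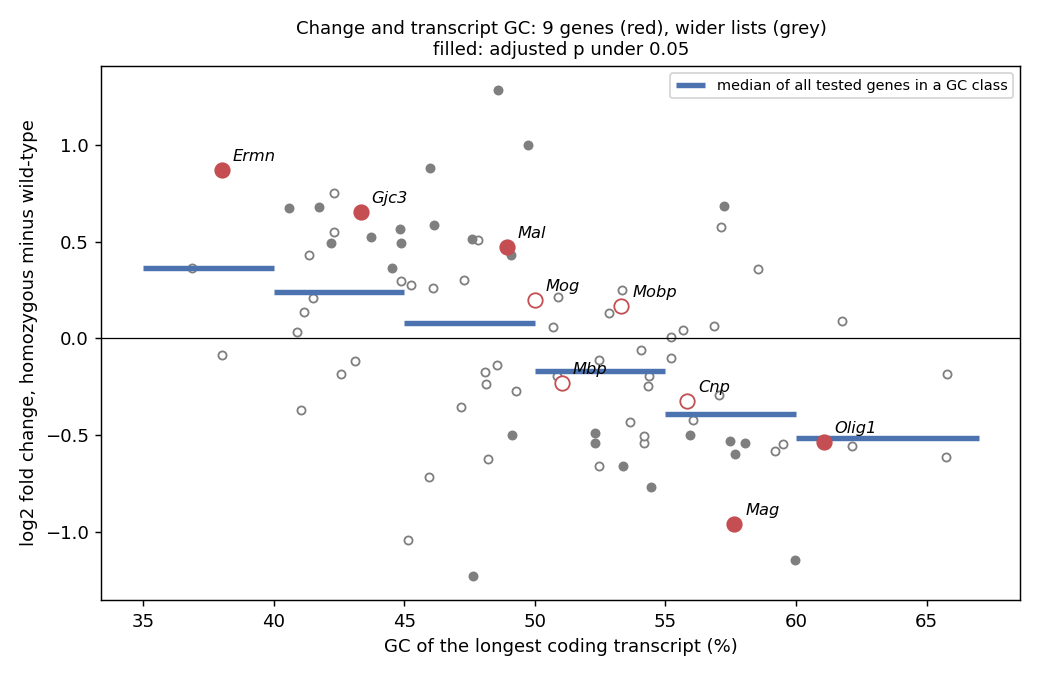
Log2 fold change in homozygous against wild-type mice, plotted over transcript GC content (percent) for the 9 genes (red) and the wider lists of myelin and oligodendrocyte genes (grey), filled where the adjusted p is under 0.05; blue lines are medians of all genes tested in a GC class. The blue lines descend from 0.37 to -0.51, and Olig1 lies near its line while Ermn and Mag lie away from theirs.

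When the dependence on GC was taken out of each library as an offset, 4 of the 5 calls were still made. Most calls over all genes tested were kept in number too, with 1313 higher and 973 lower, beside 1475 and 1248 without the offset. Mal was at 0.46 (adjusted p = 0.00961), Ermn at 0.45 (0.0248), Gjc3 at 0.45 (0.0332) and Mag at -0.58 with an adjusted p that rounds to 0.05 and lies just under it. Olig1 was then at -0.02 with an adjusted p of 0.947, and Cnp also at -0.02. With the GC score as a covariate in the fit, 1 call was left, Gjc3 at 0.73 (adjusted p = 0.0154), while all genes tested had 350 higher and 122 lower calls, down from 1475 and 1248. Ermn was then at 0.25 (0.523), Mal at 0.36 (0.216), Mag at -0.19 (0.767) and Olig1 at -0.0017 (0.998). The score and the genotype moved together, so the covariate and the genotype share what they account for. What part of the changes goes with library composition and what part with the mutation was not tested.

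Of the 22 other ways in which the comparison was run, Gjc3 was called in all 22, with log2 fold changes from 0.45 to 0.82 and adjusted p of up to 0.0332. Ermn was called in 21, Mag in 20, Mal in 18 and Olig1 in 5. Mbp, Mobp, Mog and Cnp were called in none of them.

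**Figure D5:**
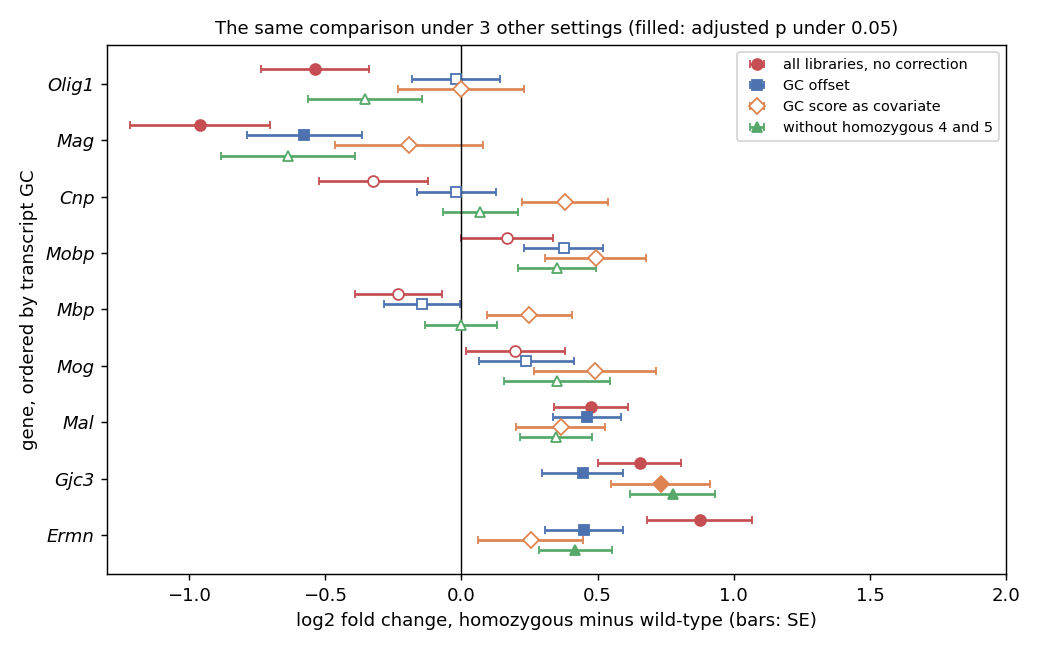
Change from wild-type to homozygous mice on the log2 scale (points; bars are 1 SE) for each gene with all libraries, with a GC offset, with the GC score as a covariate and without homozygous replicates 4 and 5; filled points have an adjusted p under 0.05. Gjc3 is filled in all 4, Olig1 moves to 0 under both GC corrections, and Cnp changes from -0.32 to 0.38 with the covariate.

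Levels were compared between genes only per kilobase of the longest coding transcript. In wild-type mice Mbp led at 245 ± 22.3 CPM per kilobase (SD, n = 4). Mal at 90.1 ± 8.93 and Cnp at 79.2 ± 5.9 came next and overlapped, with ranges of 81.3 to 102 and 70.6 to 84.1. Mobp was at 58.7 ± 8.34 and Ermn at 43.4 ± 2.79, without overlap between them. Olig1 at 31.3 ± 5.19, Gjc3 at 29.2 ± 6.92, Mog at 23.5 ± 2.71 and Mag at 19.3 ± 5.63 each overlapped the next in order. In homozygous mice Ermn, at 80 ± 35.5, stood above Cnp at 61.8 ± 25.9 and Mobp at 65.2 ± 18.1, although these spreads overlap. With the length of all exons in place of the longest transcript, wild-type Mobp (28.2) came below Ermn (43.4), so the order of these genes depends on the length used.

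The 9 profiles were also compared over the 12 libraries by the root-mean-square difference of log2 CPM, each centred on its own mean, so that a small value means a like profile. Mobp and Mog, neither of them called, were the closest pair at 0.167, followed by Mbp and Cnp at 0.211. Mal was nearest to Mog, which was not called, at 0.256, and then to Ermn at 0.269 and Gjc3 at 0.274. Ermn and Gjc3 were 0.397 apart. Olig1 was nearer to Mbp (0.258) and Cnp (0.315), neither of them called, than to Mag (0.34). The farthest pairs were Mag and Ermn at 0.947 and Mag and Gjc3 at 0.796. Mag also had the widest spread of the 9, with an SD of log2 CPM of 0.606, at the 91.4 percentile of all genes tested.

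By the same measure over 6731 other genes with a mean of at least 20 CPM, the nearest to Mbp were Lmln and Nav3, both at 0.109. Phc1 was nearest to Mobp (0.141) and second to Mog (0.114), after Hipk2 (0.108). Second to Mobp was Kcnb2 (0.155). Nearest to Mag were Ptpn23 (0.168) and Sbf1 (0.175), to Mal Arhgef6 (0.0892) and Chst2 (0.117), and to Cnp Tmem38a (0.127) and Atxn2l (0.128). Serp1 (0.162) and Egfr (0.165) were nearest to Ermn, Ube2r2 (0.0917) and Setd5 (0.125) to Gjc3, and Stat2 (0.13) and Tnpo2 (0.137) to Olig1. The median distance of all candidates from a member was 0.345 to 0.637. The neighbours share the libraries, their depth and their composition with the members, so the likeness is a description.

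The rest of the lineage was counted with 86 further genes in 5 lists, of which 76 passed the filter. Between homozygous and wild-type mice 14 rose, 11 fell and 51 did not pass, and the median log2 fold change was -0.09. That is 25 of 76, beside 25.4% of all genes tested. With upper-quartile scaling factors the split was 11 higher and 13 lower, and over all genes 1238 higher and 1575 lower. The genes that rose, members included, had a median transcript GC of 44.9% (17 genes) and those that fell 55.9% (13 genes), beside 44.8% and 54.8% among all genes called higher and lower. The lists without homozygous replicates 4 and 5 had 5 higher and 4 lower calls, where all genes tested had 810 and 534, down from 1475 and 1248. Of the 18 list genes named here by smallest p, 5 were then still called: Pmp22, Cd81, Rtn4, Tubb4a and Vcan. With the GC score as a covariate 1 of the 18 was, Tubb4a, and with the GC offset 10 of the 18 were. Changes of list genes are given here as log2 fold changes.

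Of 15 tested genes of myelin structure and adhesion, 3 rose and 3 fell, with a median of -0.37. Pmp22, a tetraspan protein best known from peripheral myelin, rose most, by 1.29 (SE 0.206, adjusted p = 0.000134). It stood at 52.1, 38.1, 40.8 and 57.2 CPM in wild-type and 87.2, 88.9, 168 and 125 in homozygous libraries, which did not overlap.  Omg, the oligodendrocyte myelin glycoprotein, rose by 0.68 (adjusted p = 0.0055), as did the tetraspanin Tspan2 by 0.50 (0.022), while the tetraspanin Cd81 fell by 0.54 (0.00332). Without homozygous replicates 4 and 5, Omg was at 0.32 (0.168) and Tspan2 at 0.24 (0.308). 

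Of 15 genes of myelin lipids and metabolism, 2 rose and 2 fell, with a median of 0.13. Plekhb1, a pleckstrin-homology protein, fell by 0.50 (adjusted p = 0.0069) and the lipid transporter Abca2 by 0.53 (0.00815). Car2, a carbonic anhydrase, rose by 0.43 (0.036) and the phospholipase Pla2g16 by 0.49 (0.0421). Each of the last 2 was called in 11 of the 22 other settings.

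Of 20 genes of the oligodendrocyte cytoskeleton and signalling, 4 rose and 5 fell, with a median of 0.07. Rtn4, the gene of the neurite growth inhibitor Nogo, rose by 0.88 (adjusted p = 0.000153), the tubulin Tubb4a by 0.69 (0.000432) and the tubulin-polymerising protein Tppp by 0.51 (0.00248). Phldb1 fell by 1.15 on the log2 scale (0.00786). Tubb4a, with 57.2% GC in its transcript, was called in all 22 other settings. Rtn4 and Tubb4a are also made by neurons.

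Of 17 lineage transcription factors, 2 rose and the other 15 did not pass, with a median of 0.04. Zeb2 rose by 0.67 (adjusted p = 0.00478) and Sox5 by 0.57 (0.0178), and without homozygous replicates 4 and 5 neither passed (0.37, adjusted p = 0.102, and 0.47, adjusted p = 0.107). Of 9 genes of oligodendrocyte precursors, 3 rose and 1 fell, with a median of -0.18. The proteoglycan Vcan rose by 0.52 (0.00743), the receptor phosphatase Ptprz1 by 0.37 (0.0142) and the sialidase Neu4 2-fold (0.0437), while Gpr17, a receptor of precursors about to mature, fell by 0.66 (0.0293). Neu4 was called in 9 of the 22 other settings and Gpr17 in 13.

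Between heterozygous and wild-type mice edgeR called 0 of the 76, beside 0.596% of all genes, DESeq2 1 and limma-voom 1. Over all 10737 genes DESeq2 called 187 higher and 41 lower in this pair, and limma-voom 256 and 138. In edgeR 8 of the 76 had a p under 0.05 before adjustment, as did 14.2% of all genes. Between homozygous and heterozygous mice edgeR called 2, Omg at 0.74 (SE 0.17) and Pmp22 at 0.79 (SE 0.196), both higher. That is 2 of 76 beside 2.2% of all genes. Without homozygous replicates 4 and 5 Omg was at 0.37 (adjusted p = 0.49) and Pmp22 at 0.39 (0.571), and with the GC covariate at 0.25 (0.687) and 0.33 (0.738). Neither was called with limma-voom, with the replicate block, with only the 2 genotypes compared, or when heterozygous replicate 1, 2 or 4 or homozygous replicate 4 or 5 was left out alone. Over all genes tested in this pair, 187 were called higher and 49 lower in the main fit. The GC covariate left 0 and 1, and so did leaving out homozygous replicates 4 and 5. The replicate block left 11 and 4, and limma-voom 70 and 8.

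Markers of cell types were read beside these genes. The summed level of 5 markers of mature oligodendrocytes outside the 9 (Cldn11, Aspa, Opalin, Ugt8a and Fa2h) was 175 to 193 CPM in wild-type and 149 to 216 in homozygous libraries, which overlapped, and 1 of the 5, Opalin, fell. Over all genes tested in this pair, 13.7% were called higher and 11.6% lower. Neuron markers summed to 4017 to 5164 and 5062 to 7327 CPM, with 3 of 6 higher. Snap25, at 2873 ± 348 and 4372 ± 779 CPM (SD, n = 4 each), rose by 0.605 on the log2 scale, Elavl4 by 0.42 and Stmn2 by 0.40. Their transcripts had 43.4%, 38.9% and 46.1% GC. Syt1 (-0.13, 45.8% GC), Rbfox3 (-0.11, 58.6%) and Tubb3 (-0.31, 57.9%) were not called. Astrocyte markers summed to 3696 to 4876 and 4158 to 5508 CPM, with 1 of 7 higher and 1 lower. Markers of endothelium and pericytes summed to 129.7 to 152 CPM in wild-type and 73.4 to 105 in homozygous libraries, with Pdgfrb and Vtn, 2 of the 5 tested, lower. Microglial markers summed to 146 to 169 and 119.7 to 157 CPM. Hypothalamic markers that passed the filter summed to 1087 to 1476 CPM in wild-type and 1262 to 1605 in homozygous libraries. Pmch alone averaged 879.7 CPM in wild-type and 1031 in homozygous mice. Agrp and Otp, at 0 to 11 and 0 to 5 counts per library, did not pass the filter. Of the 9 tested, Sst was higher, by 1.03 on the log2 scale, and Trh (-1.08) and Pomc (-1.12) were lower. The part of these differences in the changes of the 9 genes was not tested.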

How the data were processed

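Raw counts per gene symbol were deposited by the authors, 1 column per library and without normalisation: the values are whole numbers and every column has its own total. Per the labels' protocols, 50 ng of total RNA went into cDNA synthesis with the NuGEN Ovation V2 kit, and libraries were read on a SOLiD 5500xl as pairs of 75 and 35 bp. Build mm10 is named in the submitters' processing notes, whereas the aligner is not given in the sources used here, nor are counter, annotation and strand setting. From the line numbers, 58 lines of the table are not analysed here. The growth protocol speaks of 5 hypothalamus animals and the design of 4 per genotype, and the design was followed.

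Counts were tested with edgeR 4.0.16 (R 4.3.3): TMM factors (0.908 to 1.08), its default filter, quasi-likelihood F tests with genotype as the factor over all 12 libraries, and Benjamini-Hochberg adjustment over 10737 genes, called under 0.05. SE is the fold change over the square root of F, and intervals use the t distribution. CPM are TMM-scaled. Alternatives were RLE and upper-quartile factors, no filter, DESeq2 1.42.0, limma 3.58.1 voom with quality weights, a replicate block, 2 GC corrections (the GC score as a covariate, and an offset from a lowess of span 0.3), only the 2 genotypes compared, and libraries left out. GC is that of the longest protein-coding transcript in GENCODE M21, where 20717 symbols matched directly, 1895 by a RefSeq synonym and 1408 not at all. The fit was tested on simulated counts with known fold changes. These held no GC trend and no outlying libraries, so that test does not bear on the effect of either. No 2 libraries of a genotype agreed within sampling noise (chi-square per degree of freedom 1.79 to 6.32).

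The members and the lists were chosen with earlier results of these data known. Named are Wfs1, the 9 members, up to 4 called genes per list by smallest p, and the 2 nearest genes per member (mean of at least 20 CPM, no provisional symbols). Opalin, Snap25, Elavl4, Stmn2, Syt1, Rbfox3, Tubb3, Pdgfrb, Vtn, Sst, Trh, Pomc, Pmch, Agrp, Otp and Rn45s were named after their values were seen. Some genes of the lists enter the counts over a list but are not reported here by name, and the summed level of oligodendrocyte markers was limited, after values were seen, to the markers named beside it.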

Additional observations from a re-analysis of the deposited data

Results flagged for a closer look

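Among the 27 sets of 4 libraries (9 genes in 3 genotypes), 1 had a library far from the others by the gap to its nearest neighbour relative to the whole range. Mog in heterozygous mice stood at 55.1 CPM in replicate 2, against 41 to 42.7 CPM in the other 3 libraries. That library also had the highest heterozygous level of Mbp, Mobp, Mag, Mal, Cnp and Olig1, and the most counts of its genotype, 2329642. Chance alone passes this check in about 5% of such sets.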

How the results depend on the processing

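Of the 9 members, 5 were called between homozygous and wild-type mice. Of these 1 was left with the GC score as a covariate, 2 without homozygous replicates 4 and 5, and 3 to 5 when 1 library was left out. The lowest, 3, came without homozygous replicate 4, where all genes tested had 1118 higher and 835 lower calls, down from 1475 and 1248. For the slope, also 5, the counts in the same settings were 1, 3 and 3 to 5. Over all genes the slope had 1492 higher and 1265 lower calls in the main fit. It had 393 and 184 with the GC covariate, and 899 and 683 without homozygous replicates 4 and 5. Between homozygous and heterozygous mice the 1 call became 0 with upper-quartile factors, limma-voom, either GC correction, only the 2 genotypes compared, and without homozygous replicates 4 and 5, and ranged from 0 to 2 when 1 library was left out. Over all genes tested, the 187 higher and 49 lower calls of this pair became 125 and 58 with upper-quartile factors and 70 and 8 with limma-voom. They were 0 and 1 with the GC covariate, 213 and 43 with the GC offset, and 39 and 5 with only the 2 genotypes. Without homozygous replicates 4 and 5 they were 0 and 1. With 1 library left out they ran from 4 and 2 (without heterozygous replicate 2) to 532 and 335 (without homozygous replicate 2). The comparison of heterozygous with wild-type mice gave 0 in every setting run. The 25 calls in the wider lists became 4 with the GC covariate, 19 (11 higher and 8 lower) with the GC offset and 9 without homozygous replicates 4 and 5. Over all genes tested, 1475 higher and 1248 lower calls became 350 and 122, 1313 and 973, and 810 and 534 in these settings. With 1 library left out the lists had 14 to 30 calls. The 14 came without wild-type replicate 3, where all genes tested had 1074 higher and 782 lower calls. Leaving out homozygous replicate 4 gave 15, with 1118 and 835 over all genes. Without homozygous replicate 2 the lists had 16 higher and 14 lower calls, and all genes 1638 and 1438. With the GC covariate, Sbf1 was at 0.0144 and Serp1 at -0.0509, both of the opposite sign and neither called. The cause of these shifts was not tested.

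With the replicate number as a block, 3 members were called between homozygous and wild-type mice, 3 for the slope and 0 between homozygous and heterozygous mice. Over all 10737 genes, 1180 were then called higher and 1004 lower between homozygous and wild-type mice. For the slope these counts were 1216 and 1047, and between homozygous and heterozygous mice 11 and 4. Whether the numbers pair the libraries is not given in the sources used here. Of 9 same-numbered pairs 1 had deviations from the genotype means that correlated above 0.1, and 4 of 12 libraries correlated best with their own number. These correlations ran from -0.265 to 0.337, the highest being that of heterozygous and homozygous replicate 2. Weak correlations of this kind cannot exclude pairing.

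Over all genes tested, 810 were called higher and 534 lower without homozygous replicates 4 and 5. Of 1617 values for single genes under an alternative, 182 lost their call, 11 gained one and 2 changed sign with a call involved. Depth limits Mag most, with as few as 11 counts in a library.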
